A study of Mus musculus with 3 samples.

Results

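The genes described here are 5 genes of central nervous system myelin, Mbp, Mobp, Cnp, Mag and Mog. Their members in the data are all splicing events that the deposited tables list under these gene symbols, 10 events of 8727 in all. Mbp had 6 events, Mag had 3 and Mobp had 1, whereas Mog and Cnp had none, so nothing can be said here of their splicing or level. The RNA came from the hippocampus of 3 wild-type C57BL/6J mice, 10 weeks old, with 1 mouse in each group. All had been injected with AAV9, an adeno-associated viral vector, holding CTG repeats that are transcribed as CUG repeats, which the study's methods place in the 3′ untranslated region of a fluorescent reporter gene and inject on both sides into the CA1 field. The promoter that drives it is not given in the sources used here. The CUG10 + vehicle mouse carried 10 repeats, the CUG300 + vehicle mouse carried 300 repeats, and the CUG300 + CWG-cPIP mouse carried 300 repeats and was given CWG-cPIP, a cyclic pyrrole-imidazole polyamide made to bind CAG/CTG repeat DNA. The library of that mouse is called the treated library. The design asks how the long repeat changes splicing and how the compound changes it in turn. Because there was no second mouse in any group, every difference below is a difference between libraries, and the intervals cover counting error at most.

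Myelin is the stack of membrane that oligodendrocytes wrap around axons. Myelin basic protein (Mbp) and myelin-associated oligodendrocytic basic protein (Mobp) lie on the cytoplasmic side, where they hold the membrane layers together, and Cnp is an enzyme of the uncompacted cytoplasmic channels. Myelin-associated glycoprotein (Mag) sits at the innermost turn facing the axon and Mog at the outermost surface. Mbp and Mag transcripts are spliced into several isoforms whose proportions shift while myelin forms, and the RNA-binding protein QKI is known to act on such exons. In a bulk sample, fewer oligodendrocytes and less RNA per oligodendrocyte cannot be told apart.

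For each event the tables gave the number of reads from the form with the exon and from the form without it. The inclusion level (PSI), from 0 to 1, is the share of the form with the exon once the counts of both forms have been corrected for their effective lengths. An event was called when PSI differed by more than 0.15 between libraries that each had at least 20 counts. Fisher's exact test on the reads of a pair of libraries was run as well, adjusted over all events of the pair.

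The alternative exon that decides between the known forms of Mag is shown first, because it was the member with the largest PSI difference among those with at least 20 counts in each library. In GRCm38 (mm10) this 45-nt exon lies at chr7:30900352-30900396, on the minus strand. Of the 8 Mag transcripts in the GENCODE annotation, 2 contain it. It carries an in-frame stop codon, shown in capitals, after 10 codons and leaves 12 nt behind it. Transcripts that include the exon therefore encode S-MAG, the form with the short cytoplasmic tail that prevails in the adult, and transcripts that skip it encode L-MAG, the form with the long tail that prevails early in myelination. The 100-nt coding exon before it, at chr7:30900638-30900737, is shared by both forms and is given to show where the reading frame enters.
Mag exon before it: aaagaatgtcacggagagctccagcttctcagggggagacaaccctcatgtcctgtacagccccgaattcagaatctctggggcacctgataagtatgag
Mag exon of 45 nt: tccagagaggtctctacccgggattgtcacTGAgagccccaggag
Neither TGCT nor TGCC is present, and neither CGCT nor CGCC, which with them are the tetramers bound by muscleblind proteins, on the sense strand of the 45-nt exon. Of 277 alternative exons of 40 to 50 nt with a sequence at hand, 42.6% hold at least 1 of them. This describes the letters of the exon and says nothing about binding.

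None of the members was called in any comparison. The counts and PSI of each are given in turn, starting with the proteins of compact myelin.

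Mbp has a 78-nt coding exon, at chr18:82561778-82561855, that is in 5 of its 16 annotated transcripts. Isoforms with this exon are known from early myelination and also enter the nucleus. The exon was mostly skipped in all 3 mice. In the CUG10 + vehicle library 92 reads included it and 523 skipped it, which gave a PSI of 0.079 (95% interval 0.064 to 0.097). In the CUG300 + vehicle library the numbers were 36 and 337, with a PSI of 0.049 (0.035 to 0.068). In the CUG300 + CWG-cPIP library they were 125 and 608, with a PSI of 0.091 (0.076 to 0.108). The CUG300 + vehicle library was thus the lowest, and its interval did not overlap that of the CUG300 + CWG-cPIP library. Against CUG10 + vehicle its PSI differed by -0.029 (95% interval -0.052 to -0.006; Fisher's exact p = 0.0187, adjusted exact p = 1). CUG300 + CWG-cPIP stood 0.042 above CUG300 + vehicle (0.018 to 0.064; exact p = 0.000826, adjusted exact p = 0.128) and 0.012 above CUG10 + vehicle (-0.011 to 0.035; exact p = 0.333). No adjusted p passed 0.05, and all of these differences were far below the size that counts as a call.

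The other variable exon of Mbp is a 123-nt coding exon, at chr18:82578936-82579058, which is in 5 of the 16 transcripts and whose skipping gives the smaller Mbp isoforms, the more abundant ones in adult rodent brain. Measured between the 33-nt exon before it and the last exon, it was also mostly skipped. The CUG10 + vehicle library had 331 reads with the exon and 612 without it, a PSI of 0.169 (0.151 to 0.189). The CUG300 + vehicle library had 243 and 470, a PSI of 0.163 (0.142 to 0.185). The CUG300 + CWG-cPIP library had 324 and 481, a PSI of 0.202 (0.180 to 0.226). The vehicle libraries were nearly level, at a difference of -0.006 (-0.034 to 0.022; exact p = 0.677), and the treated library was the highest. It exceeded CUG300 + vehicle by 0.039 (0.008 to 0.070; exact p = 0.0145, adjusted exact p = 0.76) and CUG10 + vehicle by 0.033 (0.004 to 0.063; exact p = 0.0292, adjusted exact p = 1).

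The 33-nt coding exon of Mbp, at chr18:82575601-82575633, was included almost without exception. Before the last exon its PSI was 0.998, 0.994 and 0.997 in the CUG10 + vehicle, CUG300 + vehicle and treated libraries, on 684, 498 and 568 reads. Before the 123-nt exon its PSI was 0.992, 1.000 and 0.993 on 186, 93 and 199 reads. Another event measures the 123-nt exon between the 36-nt exon and the last exon. Its PSI was 0.989, 0.972 and 0.989, on 232, 190 and 230 reads, with at most 2 skipping reads in any library. Reads joining the 36-nt exon directly to the 123-nt exon, the skipping form of the event before the 123-nt exon, numbered 1, 0 and 1. The inclusion reads were thus nearly all from the 123-nt exon itself and its junction with the last exon. They do not show a form that lacks the 33-nt exon. The last Mbp event sets the 33-nt exon against the 123-nt exon as if they excluded each other, and gave the 33-nt exon a share of 0.845, 0.829 and 0.820. Since nearly all transcripts with the 123-nt exon also held the 33-nt exon, this share does not measure a choice between them. Its inclusion and skipping counts equalled the inclusion counts of 2 of the skipped-exon events in every library (683, 496 and 567 for the 33-nt exon; 231, 188 and 229 for the 123-nt exon). It therefore adds no reads of its own, and sums over the Mbp events count some reads more than once.

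Mobp had a single event, a 79-nt exon of the 5′ untranslated region at chr9:120154687-120154765, in 5 of 7 annotated transcripts and without coding sequence in any of them. It was included in nearly all reads, 223 against 3 skipping reads in CUG10 + vehicle, 161 against 3 in CUG300 + vehicle and 329 against 12 in CUG300 + CWG-cPIP. The PSI was 0.973 (0.924 to 0.994), 0.963 (0.897 to 0.992) and 0.930 (0.882 to 0.963) in that order, and the 3 intervals overlapped. The treated library differed by -0.033 from CUG300 + vehicle (-0.086 to 0.039; exact p = 0.406) and by -0.043 from CUG10 + vehicle (-0.094 to 0.014; exact p = 0.18).

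The 45-nt exon of Mag shown above was included in most reads. The CUG10 + vehicle library had 119 reads with it and 38 without it, a PSI of 0.661 (0.573 to 0.743). The CUG300 + vehicle library had 187 and 32, a PSI of 0.784 (0.713 to 0.845). The CUG300 + CWG-cPIP library had 66 and 16, a PSI of 0.720 (0.595 to 0.826). CUG300 + vehicle was the highest, the treated library lay between the others, and all 3 intervals overlapped. The S-MAG form was more included in CUG300 + vehicle than in CUG10 + vehicle by 0.123 (0.020 to 0.226; exact p = 0.0223, adjusted exact p = 1), which is under the threshold of 0.15. The treated library differed from CUG300 + vehicle by -0.065 (-0.198 to 0.053; exact p = 0.295) and from CUG10 + vehicle by 0.059 (-0.084 to 0.187; exact p = 0.515), so its own place between the vehicle libraries was not resolved at 82 reads.

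The other Mag exons gave less. A 288-nt coding exon at chr7:30901649-30901936 was included in 511 of 512, 597 of 597 and 479 of 480 reads in the CUG10 + vehicle, CUG300 + vehicle and treated libraries. A 53-nt exon of the 5′ untranslated region at chr7:30914269-30914321, which only 1 of the 8 transcripts contains, had 19, 18 and 35 reads, and 2 of its libraries fell short of 20. Its PSI was 0.212 (0.077 to 0.431), 0.068 (0.008 to 0.237) and 0.233 (0.121 to 0.389). The difference of 0.165 between the treated library and CUG300 + vehicle (-0.018 to 0.317; exact p = 0.102) was the single one of the members above 0.15, and it was not called for want of reads.

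**Figure D1:**
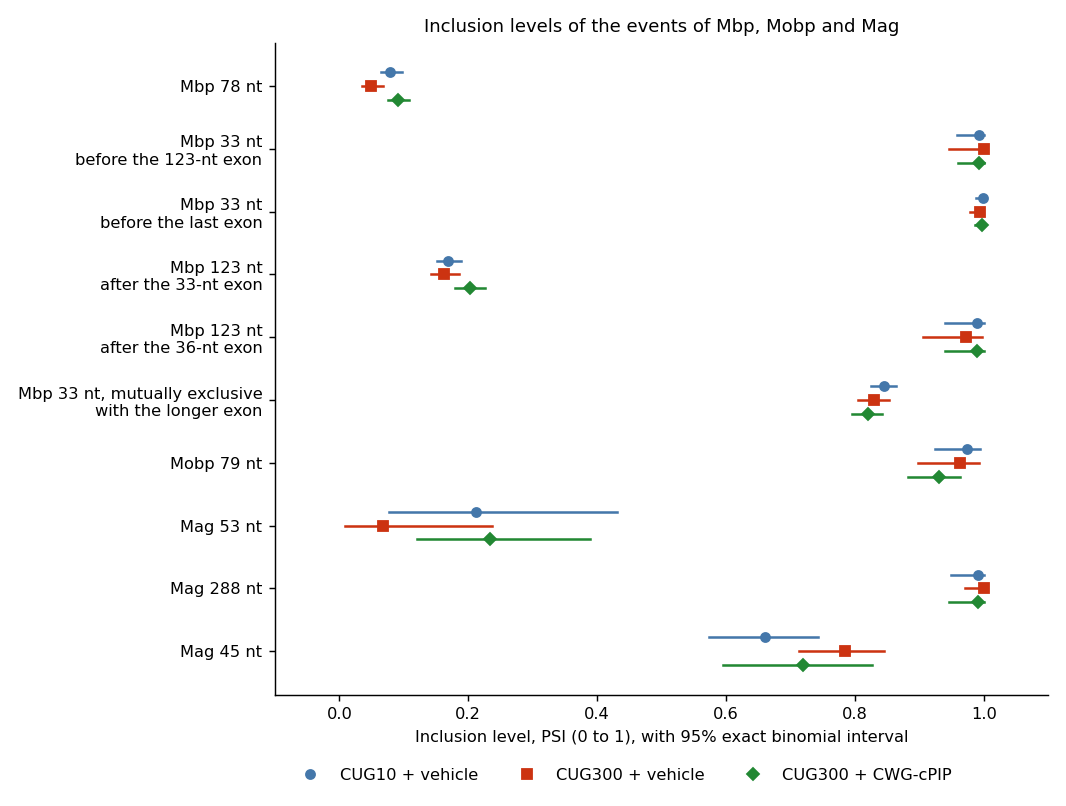
Inclusion level (PSI, 0 to 1) of the 10 events of Mbp, Mobp and Mag, with 1 point for each library and 95% exact binomial intervals as bars, each gene's events from 5′ to 3′. The 78-nt exon of Mbp and the 123-nt exon after the 33-nt exon sat at or below 0.202, the 45-nt exon of Mag between 0.661 and 0.784, and the intervals were widest for the 53-nt exon of Mag.

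Against this, the events of the whole series were called as follows. Between CUG300 + vehicle and CUG10 + vehicle, 9.34% of 2526 events with enough reads passed the size threshold, and 0 of 9 member events did. Between CUG300 + CWG-cPIP and CUG300 + vehicle the share was 11.3% of 2514, again with 0 of 9 members, and between CUG300 + CWG-cPIP and CUG10 + vehicle it was 8.56% of 3096, with 0 of 9. With 9 events, some of which share reads, a count of 0 does not set the members apart from these shares. By the exact test with the size threshold, 0.144%, 0.314% and 0.0573% of all events were called in the same order, and again 0 members. Without adjustment, 2, 2 and 1 of the 10 member events had an exact p below 0.05. Of all listed events, those with few reads included, 2.75%, 3.58% and 2.25% did. The median absolute PSI difference of the members was 0.010, 0.016 and 0.012, beside 0.041, 0.043 and 0.047 for all events with enough reads. Of the 10 events, 5 had a PSI above 0.9 in every library, where PSI has little room to move. The 78-nt exon of Mbp, at 0.079, 0.049 and 0.091 in the CUG10 + vehicle, CUG300 + vehicle and treated libraries, had little room to fall.

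Levels were read from the same counts. All inclusion and skipping reads of a gene's events were summed and divided by the total of all events with counts for all 3 libraries, which was 609546, 567697 and 560672 for the CUG10 mouse, the CUG300 + vehicle mouse and the treated mouse. These values, scaled to a total of 1000000 counts per library (CPM), follow only the parts of a gene that hold events. The library of CUG300 + vehicle differed from the others in make-up. Ttr, the thyroid hormone carrier made by the choroid plexus, took 6.77% of its counts, beside 0.0171% and 0.0112% in CUG10 + vehicle and CUG300 + CWG-cPIP. Of 6 microglia and immune markers with enough counts, 6 were over 1.5-fold higher in CUG300 + vehicle than in CUG10 + vehicle, and of 6 neuron markers 6 were lower. The summed level of the immune list was 2856, 19859 and 4912 CPM over 7 genes in the CUG10 + vehicle, CUG300 + vehicle and treated libraries, and that of the neuron list 11336, 3567 and 12237 over 7 genes. The remaining lists did not move as 1. The astrocyte list summed to 663, 1464 and 1266 over 3 genes, of which Gfap had 518, 1402 and 961 and Fgfr3 129.6, 47.6 and 273. The endothelial, mural and choroid plexus list summed to 218, 67733 and 168 over 3 genes, of which Ttr had 171, 67703 and 112 and Pecam1 44.3, 28.2 and 51.7. Neuron markers of the hippocampus such as Slc17a7 and Rbfox3 were read in every library, and no marker with events was at 0. The part of these shifts in the member values below was not tested. The median gene stood at 0.751 of its CUG10 + vehicle level in CUG300 + vehicle, at 1.49 times its CUG300 + vehicle level in CUG300 + CWG-cPIP, and at 1.11 when CUG300 + CWG-cPIP was set against CUG10 + vehicle. Each member is therefore also given relative to that median. It is given as well with the libraries scaled by size factors, each the median, over genes with counts in all 3 libraries, of a gene's count relative to its geometric mean. Genes below the count minimum of 40 take part in these factors, and under them the median tested gene stood at 1.08, 0.879 and 0.948 rather than at 1.

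Since some reads of Mbp are counted in more than 1 event, the intervals of its sum are too narrow even for counting error. Mbp had 5863 (5673 to 6059), 4494 (4321 to 4671) and 5941 (5741 to 6146) CPM in CUG10 + vehicle, CUG300 + vehicle and the treated library. The CUG300 + vehicle library was the lowest and the other two overlapped. Mbp in CUG300 + vehicle was 0.766 of its CUG10 + vehicle level (0.728 to 0.807), which is 1.02 relative to the median gene and 1.11 under size factors. In the treated library it was 1.32 times the CUG300 + vehicle level (1.26 to 1.39), or 0.89 relative to the median gene and 0.782 under size factors. Between CUG300 + CWG-cPIP and CUG10 + vehicle the ratio was 1.01 (0.966 to 1.06). Mbp thus moved about as the median gene did, with 51.2%, 44% and 40.7% of all genes tested lying below it in the 3 comparisons.

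Mobp had 371 (324 to 422), 289 (246 to 337) and 608 (545 to 676) CPM in the same order, and the treated library was above both others. Its ratio in CUG300 + vehicle against CUG10 + vehicle was 0.779 (0.633 to 0.957), 1.04 relative to the median gene and 1.13 under size factors. CUG300 + CWG-cPIP had 2.11 times the CUG300 + vehicle level (1.74 to 2.55), 1.42 relative to the median gene, and 1.64 times the CUG10 + vehicle level (1.38 to 1.95), 1.48 relative to the median gene. Mobp was the 1 member of 3 over 1.5-fold higher in each of those comparisons, in which 49.5% and 20.5% of all genes tested were called higher and 14% and 6.43% lower. Scaled by size factors the ratios were 1.25 and 1.4, and neither was then past 1.5-fold.

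Mag went the other way. It had 1129 (1046 to 1216), 1469 (1371 to 1572) and 1065 (981 to 1154) CPM, so that CUG300 + vehicle was the highest. The ratio of CUG300 + vehicle to CUG10 + vehicle was 1.3 (1.18 to 1.44), 1.73 relative to the median gene, and 84.3% of all genes lay below it. In the treated library Mag was 0.725 of its CUG300 + vehicle level (0.651 to 0.806), 0.488 relative to the median gene, and 0.943 of its CUG10 + vehicle level (0.844 to 1.05). None of these ratios was past 1.5-fold as a share of the total, but with libraries scaled by size factors they were 1.88, 0.429 and 0.806, and the first of the comparisons then passed 1.5-fold upwards and the next 1.5-fold downwards. In the CUG300 + vehicle comparison with CUG10 + vehicle, 0 of 3 members were called by share of the total, where 10.6% of 2478 genes were called higher and 42% lower.

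Per length, Mbp was the most abundant of the 3 genes. At the deepest skipped-exon event of each gene, the density of counts, in CPM per nucleotide of form length, was 16.3, 13.4 and 14.5 for Mbp in the CUG10 + vehicle, CUG300 + vehicle and treated libraries. It was 2.34, 2.91 and 2.38 for Mag and 2.46, 1.93 and 4.12 for Mobp. At these events Mag and Mobp were nearly equal in CUG10 + vehicle, Mag was the higher in CUG300 + vehicle and Mobp in CUG300 + CWG-cPIP. The events lie at unlike positions in their genes. At the 45-nt event of Mag, with 2.48, 3.53 and 1.37, the order was the same. At its shallow 53-nt event, with 0.366, 0.409 and 0.723, Mag was below Mobp in every library.

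**Figure D2:**
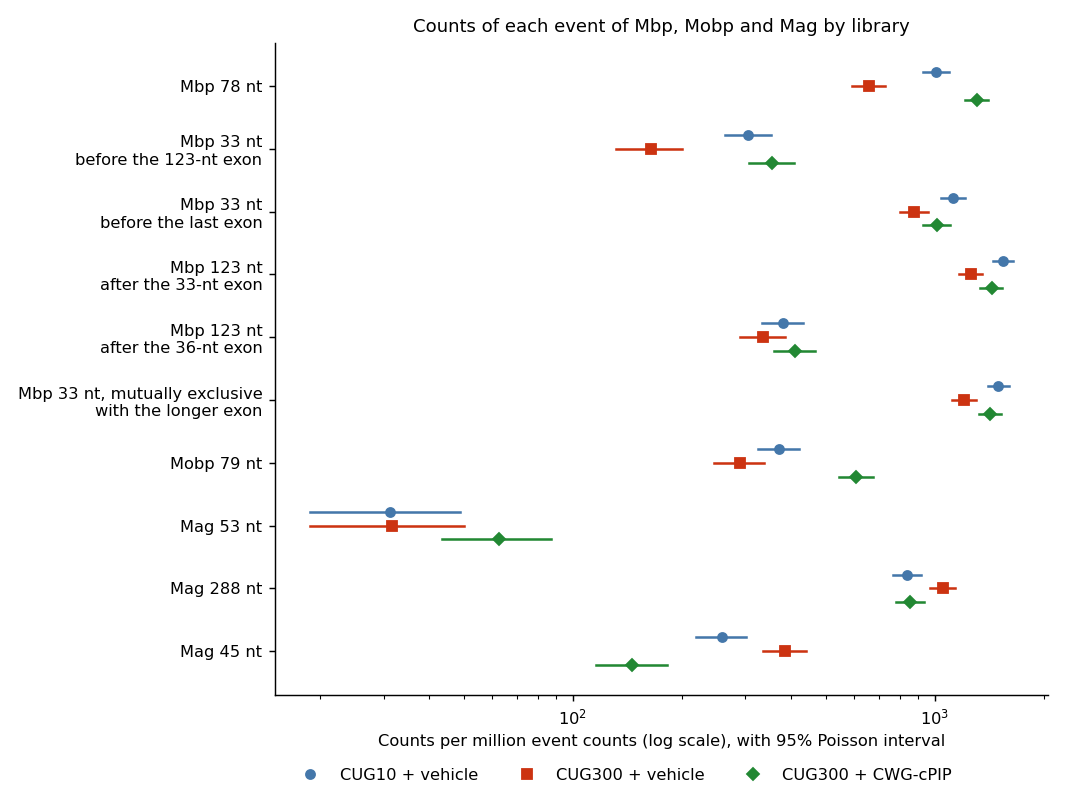
Level in CPM on a log axis for each of the 10 events of Mbp, Mobp and Mag, 1 point per library with 95% Poisson intervals, each gene's events from 5′ to 3′. The 45-nt exon event of Mag was lowest in CUG300 + CWG-cPIP, at 146, and the Mobp event was highest there, at 608.

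The events of 1 gene did not move together. In Mbp the event around the 78-nt exon, the one nearest the 5′ end, had 1009, 657 and 1307 CPM in the CUG10 + vehicle, CUG300 + vehicle and treated libraries. The event around the 123-nt exon after the 33-nt exon, at the 3′ end, had 1547, 1256 and 1436. The treated library had 1.99 times the CUG300 + vehicle counts at the first (1.75 to 2.26) and 1.14 times at the second (1.03 to 1.27). Counts at the 78-nt exon divided by those at the 123-nt exon were 0.652, 0.523 and 0.911 in the 3 libraries. At the 33-nt exon, the ratio of the treated library to CUG300 + vehicle was 2.17 (1.69 to 2.8) before the 123-nt exon. It was 1.15 (1.02 to 1.31) before the last exon. The ratios of CUG300 + vehicle to CUG10 + vehicle were 0.537 (0.414 to 0.692) and 0.782 (0.695 to 0.879) in the same order. Both events lie at the same exon and differ in the exon that follows, so they do not compare positions.

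Mag showed the same order from 5′ to 3′ between the treated library and CUG300 + vehicle. The ratio was 1.97 (1.09 to 3.69) at the 53-nt exon near the 5′ end, on only 35 and 18 reads. It was 0.814 (0.72 to 0.92) at the 288-nt exon and 0.379 (0.29 to 0.491) at the 45-nt exon near the 3′ end. The 45-nt event had 258, 386 and 146 CPM in the CUG10 + vehicle, CUG300 + vehicle and treated libraries, while the 288-nt event had 840.0, 1052 and 856. Both forms of the 45-nt event were fewer in the treated library. The form with the exon had 195, 329 and 118 CPM, and the form without it 62.3, 56.4 and 28.5. The treated library had 0.357 of the CUG300 + vehicle reads of the S-MAG form (0.266 to 0.476) and 0.506 of those of the L-MAG form (0.259 to 0.95). From CUG10 + vehicle to CUG300 + vehicle, the S-MAG form was 1.69 times as frequent (1.33 to 2.14) and the L-MAG form 0.904 times (0.547 to 1.49), and neither of these changes has a replicate.

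The balance of 5′ and 3′ reads differed between the libraries in other genes too. Over 408 genes with at least 2 separate skipped exons of 100 or more counts, the median ratio of counts at the 5′-most exon to those at the 3′-most exon was 0.838, 0.752 and 0.935 in CUG10 + vehicle, CUG300 + vehicle and the treated library. From CUG300 + vehicle to CUG300 + CWG-cPIP this balance rose 1.18-fold in the median gene, with the middle 50% of genes between 0.939 and 1.67. The same value was 1.74 for Mbp and 2.14 for Mag. From CUG10 + vehicle to CUG300 + vehicle it was 0.891 in the median gene, 0.802 in Mbp and 0.837 in Mag. The single Mobp event lies near the 5′ end, so its level cannot be told apart from this balance. The part of the balance in the levels of the members was not tested, and PSI, which compares forms at 1 place, was not corrected for it.

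**Figure D3:**
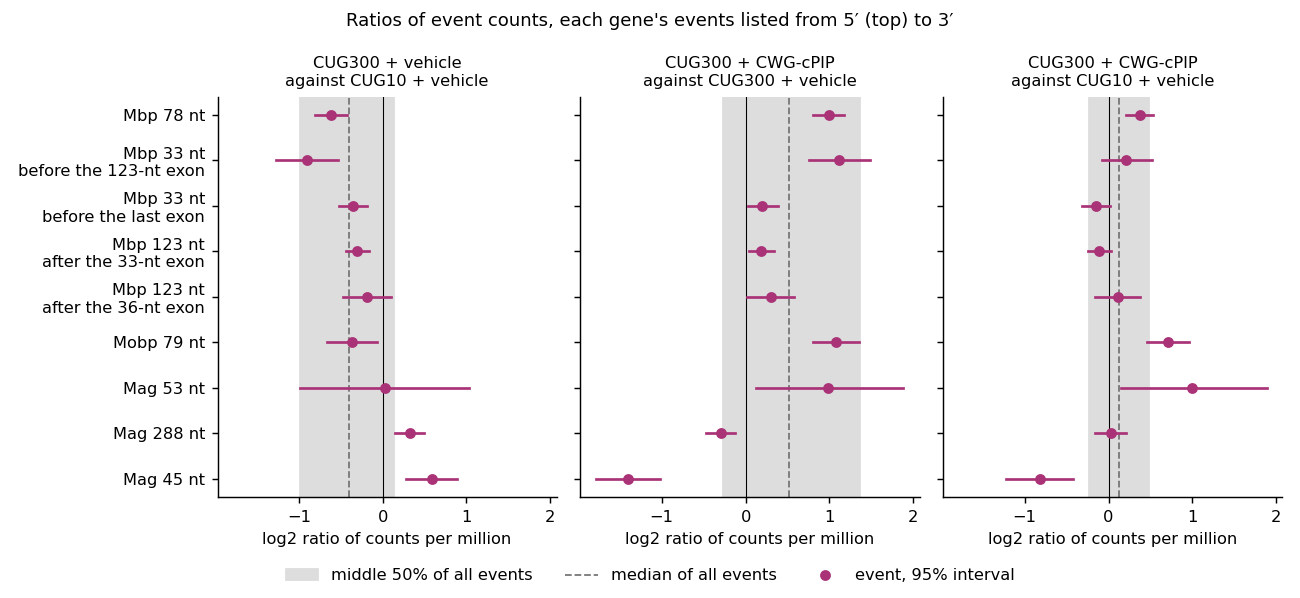
Ratios of CPM (log2) between libraries for the skipped-exon events of Mbp, Mobp and Mag, each gene's events from 5′ at the top to 3′, with 95% intervals, the median of all events dashed and their middle 50% shaded. In the middle panel the ratio fell from the 78-nt to the 123-nt exon of Mbp and from the 53-nt to the 45-nt exon of Mag. The 53-nt event had only 35 and 18 reads in the treated and CUG300 + vehicle libraries.

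The genes whose summed counts were most like the median profile of Mbp, Mobp and Mag were sought among 984 genes with at least 300 counts, by the distance of centred log2 CPM over the 3 libraries. The nearest were Sbf1 and Pisd-ps1, at distances of 0.02 and 0.03, then Dynlrb1, Ssbp4, Znrf1 and Nde1 at 0.03 to 0.06. Sbf1, for example, had 361, 317 and 419 CPM. The members themselves were farther from their median profile, Mbp at 0.18, Mobp at 0.49 and Mag at 0.62. For Mbp 62 of 981 other genes were nearer to the profile, for Mobp 360 and for Mag 474.

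Other myelin and oligodendrocyte genes were called in both directions. Of 40 listed genes, 16 had events. Between CUG300 + vehicle and CUG10 + vehicle, 2 of 12 with enough counts were over 1.5-fold higher and 3 lower, where 10.6% of all genes were higher and 42% lower, with a median ratio of 0.886 beside 0.751 for all genes. Between CUG300 + CWG-cPIP and CUG300 + vehicle, 4 of 13 were higher and 4 lower, where 49.5% of all genes were higher and 14% lower, median 1.14 beside 1.49. Between CUG300 + CWG-cPIP and CUG10 + vehicle, 2 of 13 were higher and 1 lower, where 20.5% of all genes were higher and 6.43% lower, median 1.06 beside 1.11. Scaled by size factors, these medians were 1.28, 0.674 and 0.902, so their direction turned in all 3 comparisons. Enpp2, which encodes autotaxin, had 610.3, 3581 and 605 CPM and Apod, a lipid carrier, 1928, 5151 and 2800.2. Enpp2 is also a gene of the choroid plexus, whose marker Ttr had 171, 67703 and 112 in the same libraries. Plekhb1, a membrane-associated protein, had 400.3, 254 and 423, Bcas1, a marker of newly formed myelinating oligodendrocytes, had 192, 127 and 136, and Phldb1 had 60.7, 24.7 and 91. Aspa, the enzyme that cleaves N-acetylaspartate, had 105, 116 and 69.6.

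Among these other genes Enpp2 was the one with an event called by size and by the exact test. Its 75-nt exon, at chr15:54851348-54851422, had a PSI of 0.444, 0.083 and 0.387 on 94, 319 and 84 reads. The CUG300 + vehicle library was lower than CUG10 + vehicle, with a difference of -0.362 (-0.467 to -0.260; exact p = 1.2e-17, adjusted exact p = 2.6e-14), and the treated library was higher than CUG300 + vehicle by 0.304 (0.205 to 0.411; adjusted exact p = 6.9e-10). The drop in PSI stood beside the rise of Ttr and of Enpp2 itself in that library, and the part of the choroid plexus was not tested. A 66-nt exon of Bcas1, with 38 and 22 reads, passed the size threshold between CUG300 + CWG-cPIP and CUG10 + vehicle, at 0.185 (-0.073 to 0.420; exact p = 0.19).

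Genes of the oligodendrocyte lineage and its precursors were few in the tables, 6 of 20. The 3 with enough counts were all over 1.5-fold lower in CUG300 + vehicle than in CUG10 + vehicle, and 4 of 4 were higher in the treated library than in CUG300 + vehicle, with medians of 0.486 and 4.48. Of all genes, 42% were lower in the first of these comparisons and 49.5% higher in the second, and the same shares stand behind the axon and neuron lists. Fyn, a kinase of early myelination that neurons also express, had 399, 194 and 449 CPM, Bcan, which encodes brevican, 161, 61.7 and 241, and Vcan, which encodes versican, 70.5, 37 and 187. The axon list, meant for partners of myelin proteins on the axon, had 7 genes and gave 6 of 6 lower and then 5 of 6 higher. Among them was Rtn4, with 3678, 2286 and 4398 CPM. The list is not purely axonal, since Rtn4 encodes Nogo, which is itself a protein of myelin. The neuron markers had the same direction, with 6 of 6 lower and then 7 of 7 higher. Scaled by size factors, the lineage list gave 1 of 3 lower and then 3 of 4 higher, the axon list 4 of 6 lower and then 3 of 6 higher, and the neuron list 4 of 6 lower and then 5 of 7 higher.

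The list of RNA-binding proteins of myelin transcripts also held Kif1b, which encodes a kinesin motor, and Cbx5, which encodes a chromatin protein. In CUG300 + vehicle against CUG10 + vehicle, 8 of 14 of its genes were lower and none higher, where 42% of all genes were lower. In the treated library against CUG300 + vehicle, 14 of 17 were higher and none lower, where 49.5% of all genes were higher. These counts include Kif1b, at ratios of 0.296 and 9.27, and in the second comparison Cbx5, at 3.13. Scaled by size factors these counts were 3 of 14 lower and 6 of 17 higher. Qk, which encodes QKI, had 185, 86.3 and 385 CPM, all from 1 event, and Mbnl2, one of the muscleblind genes, had 277, 109 and 501. Hnrnpa2b1 encodes a protein that binds Mbp RNA during its transport. Its 120-nt exon, at chr6:51464428-51464547, had a PSI of 0.957 (0.896 to 0.988), 0.706 (0.601 to 0.800) and 0.974 (0.926 to 0.994) on 239, 153 and 293 reads. It was lower in CUG300 + vehicle than in CUG10 + vehicle, with a difference of -0.252 (-0.357 to -0.147; adjusted exact p = 0.00262) and higher in the treated library than in CUG300 + vehicle by 0.268 (0.170 to 0.372; adjusted exact p = 3.5e-05). By size, 6 of 19, 5 of 19 and 5 of 25 events of this list were called in the 3 comparisons, at 20 reads or more, where 9.34%, 11.3% and 8.56% of all events were called, and Hnrnpa2b1 was the gene with an event that the exact test called. For the other events of this list called in the first comparison, in Celf2, Qk, Hnrnpf and Fxr1, the exact p was between 0.0533 and 0.43. In the second comparison a 92-nt exon of Fxr1 differed by 0.361 (0.158 to 0.536; exact p = 0.000785, adjusted exact p = 0.128). A 136-nt exon of Hnrnpa2b1 differed there by 0.293 (0.071 to 0.453; exact p = 0.0117, adjusted exact p = 0.662). The exact p of the Celf2 events was 0.202 and 0.206 there. The called events of Celf2 in the first and second comparisons overlap, at chr2:6539699-6546779 and chr2:6539699-6547213. They may share reads and are not separate calls. Comparisons that use the same library share its counting error.

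**Figure D4:**
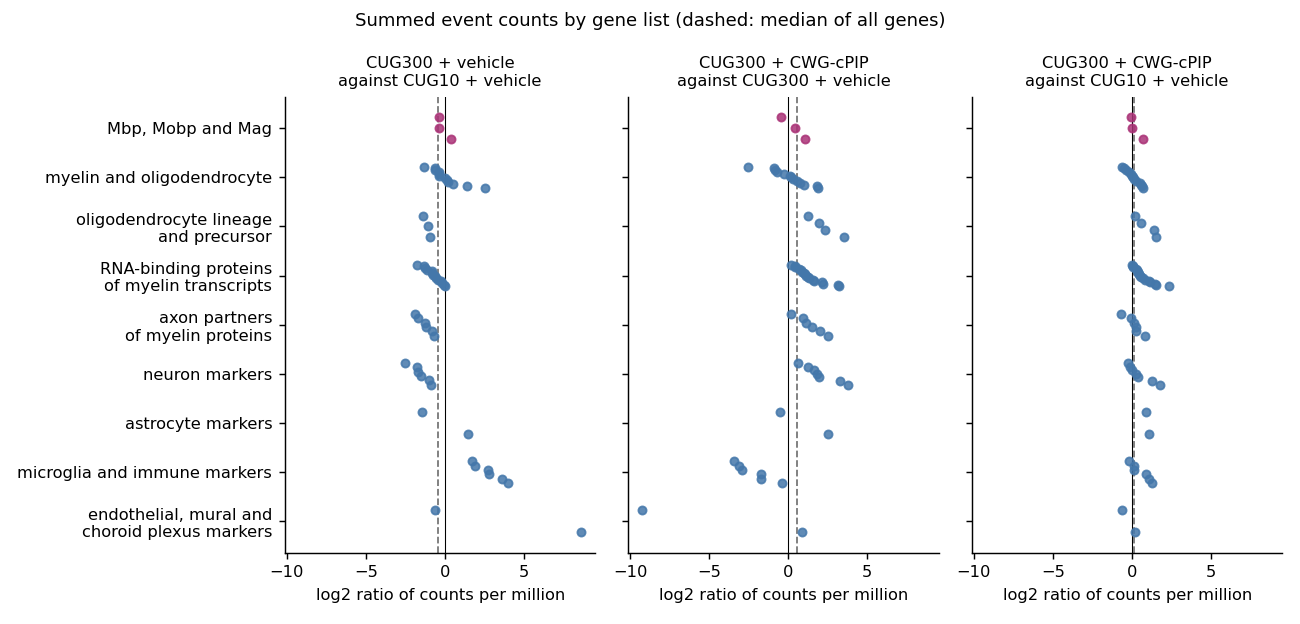
Ratio of summed CPM (log2) between libraries for Mbp, Mobp and Mag and for the genes of each list with at least 40 counts in the pair, 1 point per gene, with the median of all genes dashed. The 3 members lay between -0.46 and 1.07 in every panel, while the immune markers lay at the right and the neuron markers at the left in the first panel.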

How the data were processed

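Hippocampal RNA of 3 mice was sequenced from strand-specific libraries, 1 library per group. Per the labels the authors used Trim Galore 0.6.6, RSEM 1.3.3, STAR 2.7.9a and DESeq2 1.36.0, and the study's methods name rMATS for splicing and mm10. The 15 deposited tables, 5 event types for each of 3 pairs of libraries, hold the authors' inclusion and skipping counts (junction and exon reads, whole numbers, not normalized), effective form lengths, and inclusion levels as a fraction from 0 to 1. The deposited p-values, FDR and differences of inclusion levels are the authors' comparisons and were not used. PSI was recomputed from counts and lengths and deviated from the deposited fraction by at most 0.0005. All 14737 count pairs that occur in more than 1 table were identical. The deposited skipping forms have an effective length of 74 nt, shorter than the read length in the study's methods, which was not resolved.

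Of 8727 events, 7659 had counts for all 3 libraries and gave the totals. PSI intervals are exact binomial (Clopper-Pearson, 95%), those of differences Newcombe, those of levels Poisson and those of ratios an exact binomial split. Reads are not independent molecules, so these cover counting error at most. Fisher's exact test was two-sided, with Benjamini-Hochberg adjustment, and compares libraries, not conditions. Levels were called past 1.5-fold among genes with at least 40 counts in the pair. Annotation and sequences came from GENCODE transcripts on GRCm38, which matched 4706 of 4860 gene symbols and the ends of 6478 of 6532 skipped exons.

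Named were all member events, list genes called by PSI or past 1.5-fold with at least 100 counts over the libraries, the genes these results turn on, and the 6 genes nearest in profile among those with at least 300 counts. The values of 1 list gene that met this rule are not reported here. Members and lists were chosen with earlier results of these data known. Alternatives changed the depth minimum, PSI threshold, adjustment, scaling and events summed. Python 3.11.15, numpy 2.4.6, pandas 2.3.3, scipy 1.17.1 and matplotlib 3.10.9 were used.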

Additional observations from a re-analysis of the deposited data

How the results depend on the processing

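No library could be left out, since each group had a single mouse, and differences were not checked against replicates. No paired analysis was possible because each group held 1 library. Of the counts of calls, 68 alternative values were equal to the reported ones or within 1.5 times of them, and 16 were not. Most of the 68 were 0 in both settings, so this tally says little of the calls above 0. With a PSI threshold of 0.1, 1 member event (the 45-nt exon of Mag) was called between CUG300 + vehicle and CUG10 + vehicle, and with a depth minimum of 10, 1 (the 53-nt exon of Mag) between CUG300 + CWG-cPIP and CUG300 + vehicle. Other depth minimums, the PSI without length normalisation and both other adjustments of the exact test left 0 members called.

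Scaling by size factors changed the calls of members past 1.5-fold to 1 higher (Mag) between CUG300 + vehicle and CUG10 + vehicle, to 0 higher and 1 lower (Mag) between CUG300 + CWG-cPIP and CUG300 + vehicle, and to 0 higher between CUG300 + CWG-cPIP and CUG10 + vehicle. The median ratio of all genes was then 1.08, 0.879 and 0.948. Under it the other myelin and oligodendrocyte genes gave 5 higher and 1 lower, 2 higher and 6 lower, and 0 higher and 3 lower in the same comparisons. Summing only events listed for all 3 pairs gave 0 of these genes lower in CUG300 + vehicle. Alternatives chosen after seeing the data took 1 skipped exon per gene, among those with at least 100 counts over the libraries, which leaves out the 53-nt exon of Mag. With the 5′-most (for Mag the 288-nt exon), 1 member (Mbp) was lower in CUG300 + vehicle against CUG10 + vehicle and 2 (Mbp and Mobp) were higher in the treated library against CUG300 + vehicle. With the 3′-most, 1 member (Mag) was lower in the treated library against either. The cause was not tested.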
